A study of Mus musculus with 15 samples.

Results

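The nuclear-encoded subunits of the 5 oxidative phosphorylation complexes were examined in mouse liver. They were chosen by gene symbol alone, as the probe sets whose only symbol in the platform annotation begins with Nduf, a letter of a, b, c, s or v and a digit (complex I), with Uqcr (complex III), Cox4 to Cox8 (complex IV) or Atp5 (complex V), or is Sdha, Sdhb, Sdhc or Sdhd (complex II). Assembly factors such as Ndufaf1 were not included. The rule gave 164 of the 45101 probe sets on the array, for 81 of the 18194 genes with a symbol of their own. Another 9 probe sets with a fitting name carry several symbols and were left out. All mice were male C57BL/6J, were 8 weeks old at the start and were fed for 12 weeks, and 1 array was run on the whole-liver RNA of each mouse. The 5 NC mice received CRF-1 standard chow. The 5 CL mice received a mix of that chow with cocoa butter (60%), cholesterol (1.25%) and sodium cholate (0.5%), a diet that produces steatohepatitis. The 5 CL+CX mice received the CL diet with β-cryptoxanthin, a carotenoid of citrus fruit, given as 0.003% in the treatment text and as 0.005% in the sample titles.

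Oxidative phosphorylation takes place in the inner mitochondrial membrane. Complexes I and II pass electrons from NADH and from succinate to ubiquinone, complex III passes them on to cytochrome c, and complex IV to oxygen. Complexes I, III and IV pump protons across the membrane, and complex V, the ATP synthase, lets them back in to make ATP. Hepatocytes are rich in mitochondria and depend on this chain to oxidize fatty acids. The members follow the older naming in which Atp5a1, Atp5b and Atp5c1 stand for what are now Atp5f1a, Atp5f1b and Atp5f1c. Ndufa4 was counted with complex I by its name, although its protein is now assigned to complex IV.

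Signals were scaled to a common 75th percentile of 54.1 and are given as log2 signal. A probe set was tested where it was at or above the median of its array in all 5 mice of at least 1 group, which left 142 of the 164 probe sets, for 75 of the 81 genes, among 20342 probe sets tested in all. By complex, 66 of 73 probe sets were tested for complex I, 8 of 9 for complex II, 13 of 16 for complex III, 27 of 35 for complex IV and 28 of 31 for complex V. The subunits of mouse tissues other than liver were dim. Cox4i2, a lung isoform, and Cox6a2 and Cox8b, isoforms of heart and skeletal muscle, did not reach the test, with mean log2 signals of 3.00 for Cox4i2, 3.37 and 1.13 for the Cox6a2 probe sets and 0.79 for Cox8b. The muscle isoform Cox7a1 and the testis isoforms Cox6b2 and Cox8c were tested at mean log2 signals of 3.99, 4.36 and 5.94, and none of them passed in any comparison.

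The arrays differed before scaling. Their 75th percentiles lay between 41.5 and 52.7 in NC, 46.0 and 79.0 in CL, and 50.7 and 63.7 in CL+CX. After scaling, the profile of CL mouse 2 over all probe sets tested stood apart, with a mean correlation with its own group of 0.941, against 0.957 to 0.962 for the other CL mice, 0.964 to 0.969 in NC and 0.967 to 0.972 in CL+CX. The numbers of members called lower are given with and without this mouse. So is the median difference of all members between CL and each other group. Spreads and correlations between mice include CL mouse 2. Hepatocyte markers were present in every group, while the 6 skeletal muscle markers and the 3 fat markers on the array were too dim to be tested.

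The subunits varied together from one liver to the next. The median of the 142 probe sets, as a log2 difference from the NC mean, was 0.025, 0.088, 0.11, -0.11 and -0.11 in NC mice 1 to 5. It was -0.58, 0.41, -0.13, -0.63 and -0.28 in CL mice 1 to 5, and -0.25, -0.082, -0.16, -0.11 and -0.25 in CL+CX mice 1 to 5. CL mouse 2 was the highest of all 15 livers, and CL mice 1 and 4 were the lowest. The 5 CL livers spanned the values of both other groups, with an SD of 0.419 against 0.106 in NC and 0.0757 in CL+CX. The same medians over all probe sets tested lay between -0.13 and 0.057 in the 15 mice. The size of these differences depended on the scaling: under quantile normalization the CL medians were -0.29, 0.17, -0.029, -0.24 and -0.046, and in the signals as deposited they were 0.15, 0.36, 0.33, -0.40 and -0.086.

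**Figure D1:**
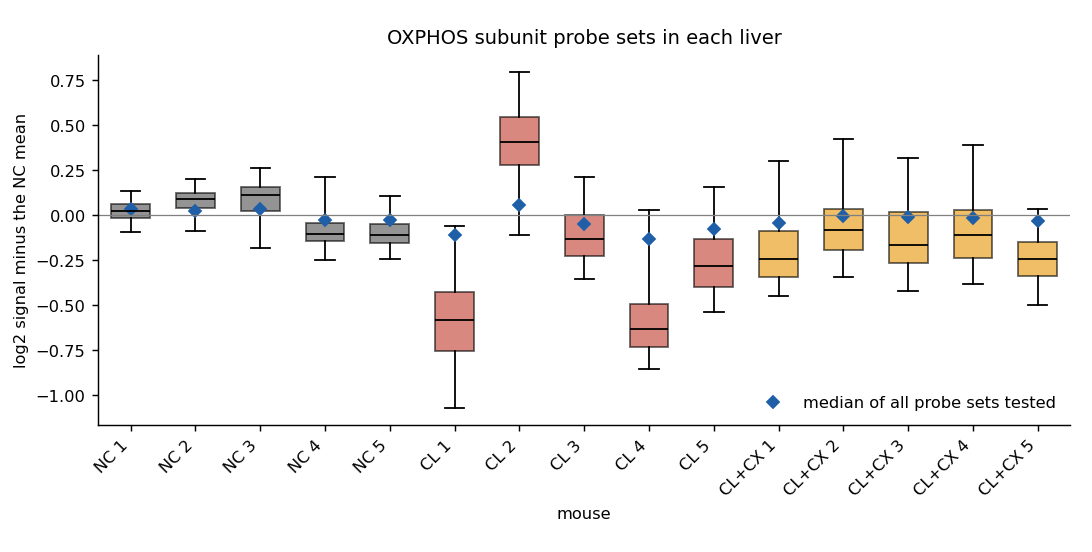
Log2 signal of the 142 tested subunit probe sets minus each one's NC mean (vertical axis) in each of the 15 livers (horizontal axis); boxes are quartiles with the median as a line, whiskers run from the 5th to the 95th percentile, and diamonds are the median of all 20342 probe sets tested. CL mouse 2 lies above every other liver and CL mice 1 and 4 lie below, while the diamonds stay between -0.13 and 0.057.

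After the mean of each diet was subtracted, a single component held 84.7% of the variance of the 125 members with a mean log2 signal of 7 or more, against 20.8% over all probe sets tested. The median correlation of these members with their common profile over the 15 mice was 0.945, and 118 of the 125 (94.4%) had a correlation above 0.7. Over all probe sets tested the median was 0.112 and 12.6% were above 0.7. The common profile was the median of the same 125 members, so their own correlations with it are raised by construction. Most of the other probe sets had no part in it, so the 2 sets of values are not on equal terms. All probe sets tested also include dim ones, and no background of like brightness was computed. Genes outside the members also followed the profile, with a median of 0.847 for 6 hepatocyte markers and 0.827 for 76 mitochondrial ribosomal proteins. The points share their arrays and their scaling factors, so these correlations are a description. They include CL mouse 2, as does the share of variance, and were not recomputed without it. Complex by complex, the medians of complexes I, III, IV and V correlated with one another at 0.983 to 0.995 over the 15 mice. The medians were taken over the members with a mean log2 signal of 7 or more. Complex II had lower values, at 0.866 to 0.891. It has the fewest probe sets (8 tested, against 66 for complex I), and a median over few probe sets is less precise. The part of this in its lower correlations was not tested. The catalytic subunit of complex II, Sdha, had a correlation of 0.31 (1426688_at) and 0.80 (1426689_s_at) with the common profile. Its iron-sulfur subunit Sdhb and its membrane anchors Sdhc and Sdhd had 0.939, 0.937 and 0.958 on their brightest probe sets. The dimmer probe sets of complex II were also loose, at 0.16 for Sdhc 1435986_x_at and -0.44 for Sdhd 1437489_x_at.

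**Figure D2:**
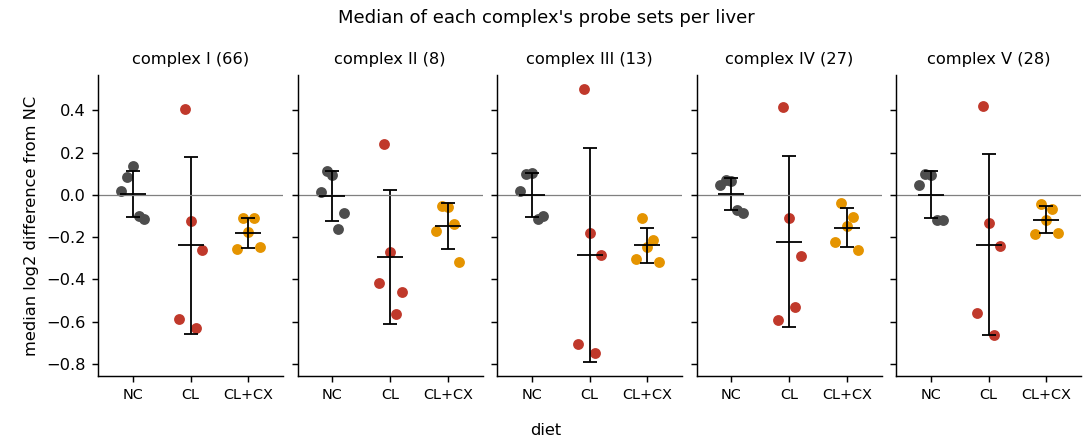
Median log2 difference from the NC mean over the tested probe sets of each complex (their number in parentheses) in each liver, by diet; points are mice, and the bars are the mean and SD of 5 mice. In every complex the CL mice are spread far apart, with CL mouse 2 highest, and the CL+CX mice lie close together, at means of -0.12 to -0.24.

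The first comparison asks what the CL diet did to the subunits. The flavoprotein subunit of complex II, Sdha, fell by 31.0% and 25.9% on its bright probe sets, and 4 further genes fell, with changes of -24.7% to -30.8%: the complex I subunits Ndufs1 and Ndufs7, the complex III core protein Uqcrc1 and the ATP synthase α subunit Atp5a1. Of the 142 probe sets, 6 were lower in CL than in NC at an adjusted p under 0.05 (limma, adjusted over all 20342 probe sets) and 0 were higher. Over all probe sets tested, 6.35% were lower and 5.9% were higher, so the share of 6 in 142 was not above the background. At an unadjusted p under 0.05 there were 24 of the 142, a smaller share than the 26.7% of all probe sets tested. The methods' test gave 6 lower and 0 higher, where 4.19% and 3.59% of all probe sets tested were. The signs of the differences leaned to one side: 132 of the 142 (93.0%) had a lower mean in CL, with a median difference of -0.25, against 61.2% and a median of -0.085 over all probe sets tested. The groups did not overlap for 3 members, all lower in CL, where 5.21% of all probe sets tested had no overlap and were lower. A smaller share of hepatocytes in these livers and less subunit RNA per hepatocyte cannot be told apart in whole-liver RNA.

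Sdha carries the flavin that oxidizes succinate. Its probe set 1426688_at had log2 signals of 10.85, 10.93, 10.94, 10.65 and 10.70 in NC mice 1 to 5, 10.39, 10.24, 10.48, 10.06 and 10.23 in CL mice and 10.41, 10.44, 10.43, 10.40 and 10.31 in CL+CX mice. All 5 CL mice lay below all 5 NC mice, and the CL+CX mice also lay below NC while overlapping CL. The difference between CL and NC was -0.53 (SE 0.105, adjusted p = 0.0043). The other bright probe set, 1426689_s_at, had 10.36, 10.34, 10.50, 10.29 and 10.28 in NC mice 1 to 5, 9.92, 10.13, 9.97, 9.70 and 9.88 in CL mice and 10.09, 10.23, 10.28, 10.16 and 10.11 in CL+CX mice. It gave the same separation, with a difference of -0.43 (SE 0.101, adjusted p = 0.0116). The highest CL mouse was mouse 3 on 1426688_at and mouse 2 on 1426689_s_at. Another Sdha probe set, 1433293_at, was dim, at a mean log2 signal of 4.57.

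Ndufs1 is the largest subunit of complex I and holds several of its iron-sulfur clusters. Its log2 signals were 9.28, 9.25, 9.55, 9.18 and 9.24 in NC mice 1 to 5, 8.94, 9.03, 9.01, 8.53 and 8.77 in CL mice and 8.91, 9.19, 8.999, 8.97 and 8.89 in CL+CX mice. The CL mice all lay below the NC mice, with a difference of -0.44 (SE 0.119, adjusted p = 0.0245). Ndufs7 holds the last iron-sulfur cluster before ubiquinone. Its probe set 1424313_a_at had 10.15, 10.05, 10.17, 9.91 and 10.01 in NC mice 1 to 5, 9.29, 10.10, 9.63, 9.17 and 9.44 in CL mice and 9.63, 9.79, 9.70, 9.86 and 9.64 in CL+CX mice. CL mouse 2 lay among the NC mice and the other 4 CL mice lay below them, and the difference was -0.53 (SE 0.149, adjusted p = 0.0301). The brighter probe set of Ndufs7, 1451312_at, gave -0.41 (SE 0.14, adjusted p = 0.0715), which did not pass.

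Uqcrc1 is a core protein on the matrix side of complex III. Its log2 signals were 11.00, 11.07, 11.06, 10.76 and 10.91 in NC mice 1 to 5, 10.36, 10.95, 10.60, 10.20 and 10.49 in CL mice and 10.65, 10.67, 10.64, 10.65 and 10.53 in CL+CX mice. Again 4 CL mice lay below NC and CL mouse 2 lay inside it, and the difference was -0.44 (SE 0.129, adjusted p = 0.0373). Atp5a1 forms the catalytic head of the ATP synthase together with Atp5b. Its probe set 1423111_at had 11.75, 11.89, 11.78, 11.57 and 11.55 in NC mice 1 to 5, 11.21, 11.71, 11.43, 11.05 and 11.10 in CL mice and 11.23, 11.27, 11.15, 11.22 and 11.09 in CL+CX mice. CL mouse 2 lay inside the NC range, and the difference of -0.41 (SE 0.129, adjusted p = 0.0495) was just under the threshold. A second Atp5a1 probe set, 1449710_s_at, gave -0.34 with an adjusted p of 0.0771.

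**Figure D3:**
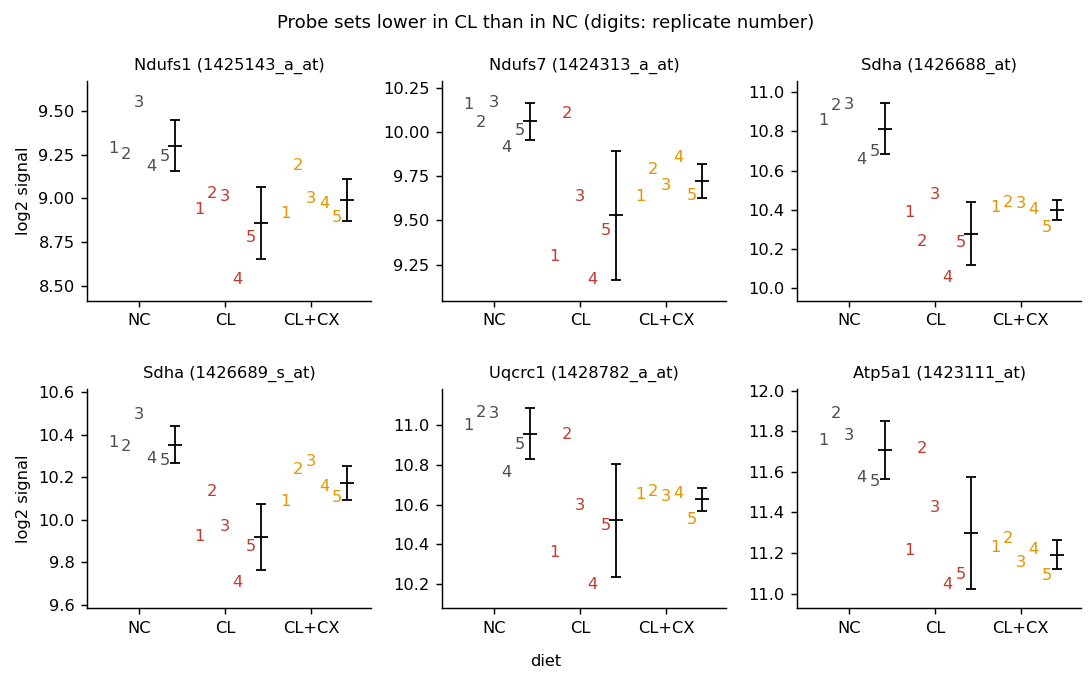
Log2 signal of the 6 probe sets that were lower in CL than in NC, by diet; digits are the replicate numbers of single mice, and the bars are the mean and SD of 5 mice. The CL mice lie below every NC mouse for Ndufs1 and both Sdha probe sets, while CL mouse 2 reaches the NC range for Ndufs7, Uqcrc1 and Atp5a1.

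These calls differed in how well they stood up to other settings. The Sdha probe set 1426688_at kept an adjusted p under 0.05 in 25 of 28 alternatives and 1426689_s_at in 24 of 27, Ndufs1 in 20 of 28, Ndufs7 in 16 of 27, Uqcrc1 in 16 of 28 and Atp5a1 in 8 of 28. The difference stayed below 0 in each of these alternatives. With the 3′ to 5′ difference of the β-actin control of each array as a covariate, 5 of the 6 calls were lost, with adjusted p of 0.0632 for Sdha 1426689_s_at, 0.105 for Ndufs1, 0.142 for Ndufs7, 0.14 for Uqcrc1 and 0.133 for Atp5a1. With this covariate the share lower over all probe sets tested fell as well, from 6.35% to 2.24%. The β-actin control, a sign of RNA quality, was 0.822 ± 0.0968 (log2, SD, n = 5) in CL and 0.937 ± 0.0859 in NC, with overlap, and its part in the result was not tested beyond this covariate. Without scaling, none of the 6 passed, and the median of all probe sets tested was then shifted by 0.23 between CL and NC, with 96.2% of all calls being higher, against -0.085 and 48.2% with scaling. Relative to the median of all probe sets tested, which scaling by 1 factor per array cannot change, the median of the members was -0.16, and it was -0.071 under quantile normalization.

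A set of core subunits was listed whatever their values: subunits with redox centres or catalytic sites, their close partners and, for complex IV, whose redox centres lie in subunits encoded by mitochondrial DNA, large nuclear-encoded subunits. Those not named above had differences below 0 and did not pass. In complex I, Ndufv1, which binds NADH and the flavin, had a difference of -0.41 (adjusted p = 0.0535). Ndufs3 and Ndufv2 had -0.35 and -0.34 (adjusted p = 0.154 and 0.257), and Ndufs8, which carries a pair of iron-sulfur clusters, had -0.089 (adjusted p = 0.813). In complex II, Sdhd, Sdhb and Sdhc had -0.42, -0.30 and -0.12 (adjusted p = 0.127, 0.267 and 0.601). In complex III, Uqcrfs1, the Rieske iron-sulfur protein, had -0.36 and Uqcrc2 -0.30 (adjusted p = 0.196 and 0.329). In complex IV, Cox4i1, Cox5b and Cox5a had -0.30, -0.29 and -0.084 (adjusted p = 0.242, 0.264 and 0.772). In complex V, the catalytic subunit Atp5b had -0.38 and the central stalk subunit Atp5c1 -0.19 (adjusted p = 0.116 and 0.514). In the signals as deposited the differences of Ndufs8, Sdhb, Sdhc, Uqcrc2, Cox4i1, Cox5a, Cox5b and Atp5c1 took the opposite sign, and under quantile normalization those of Ndufs8, Cox5a and Atp5c1 did. With 1 probe set per gene, the 19 core genes had a median of -0.35, with 4 lower, and the 56 other genes had a median of -0.25, with 0 lower and 7 at an unadjusted p under 0.05. Over all 10521 genes taken this way, 6.76% were lower, and the difference between core and other genes was not tested.

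**Figure D4:**
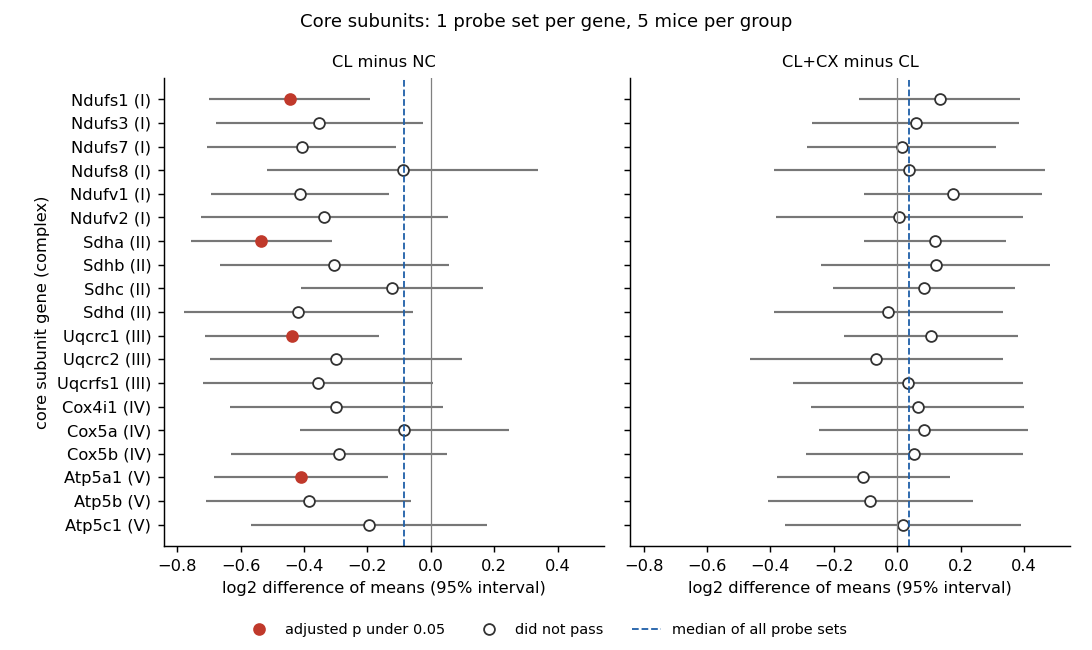
Difference of group means in log2 signal (horizontal axis) for the 19 core subunit genes, by complex, for CL minus NC and for CL+CX minus CL; lines are 95% intervals from limma, filled points passed at an adjusted p under 0.05, and the dashed line is the median of all probe sets tested (-0.085 and 0.038). All 19 lie below 0 for CL minus NC and 4 passed, while none passed for CL+CX minus CL.

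The 5 complexes shared this lean, and differences between complexes were not tested. The median difference between CL and NC was -0.25 for complex I (2 of 66 probe sets lower), -0.26 for complex II (2 of 8), -0.32 for complex III (1 of 13), -0.23 for complex IV (0 of 27, with 4 at an unadjusted p under 0.05) and -0.27 for complex V (1 of 28). The SD of a complex's median between CL mice was 0.317 to 0.506. In the signals as deposited the medians of complexes I, II, IV and V were above 0 and that of complex III was not. Members that did not lean the same way were mostly dim: of the 17 members with a mean log2 signal under 7, 11 had a lower mean in CL, and of the 125 brighter members 121 did. The largest differences of either sign, -1.13 for a dim Cox8a probe set (1436409_at) and 0.79 for Cox7a1 (1418709_at), had SEs of 0.626 and 0.471 and did not pass (adjusted p = 0.262 and 0.298).

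The number of subunits called depended most on CL mouse 2. Without it, 71 of the 142 probe sets tested were lower in CL than in NC and 0 were higher, where 11.4% of all probe sets tested were lower. The 6 probe sets called with all mice were among them, and the 71 belonged to 44 genes: 33 probe sets of complex I, 4 of complex II, 9 of complex III, 10 of complex IV and 15 of complex V. The median difference was then -0.42 over all members, and -0.40, -0.40, -0.50, -0.38 and -0.43 for complexes I to V. The Rieske protein Uqcrfs1 was lower by this count at -0.52 (adjusted p = 0.0106), Cox4i1 at -0.46 (adjusted p = 0.0105) and Atp5b at -0.52 (adjusted p = 0.0109). With quantile normalization in addition, a combination chosen after seeing the data, the number fell from 71 to 14. That was 9.86% of the members, against 6.63% of all probe sets tested. The leave-outs of NC mice 1, 2, 3 and 5 gave 3, 3, 2 and 3 probe sets, and those of CL mice 1, 4 and 5 gave 3, 2 and 2. In these fits 1.4% to 2.11% of the members were lower, against 3.75% to 5.18% of all probe sets tested. No reason to leave out CL mouse 2 is given by the labels. It had the highest median of the members, so leaving it out lowers their CL means and their CL spread by construction. The members also varied together, so the 71 calls are not 71 separate results.

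**Figure D5:**
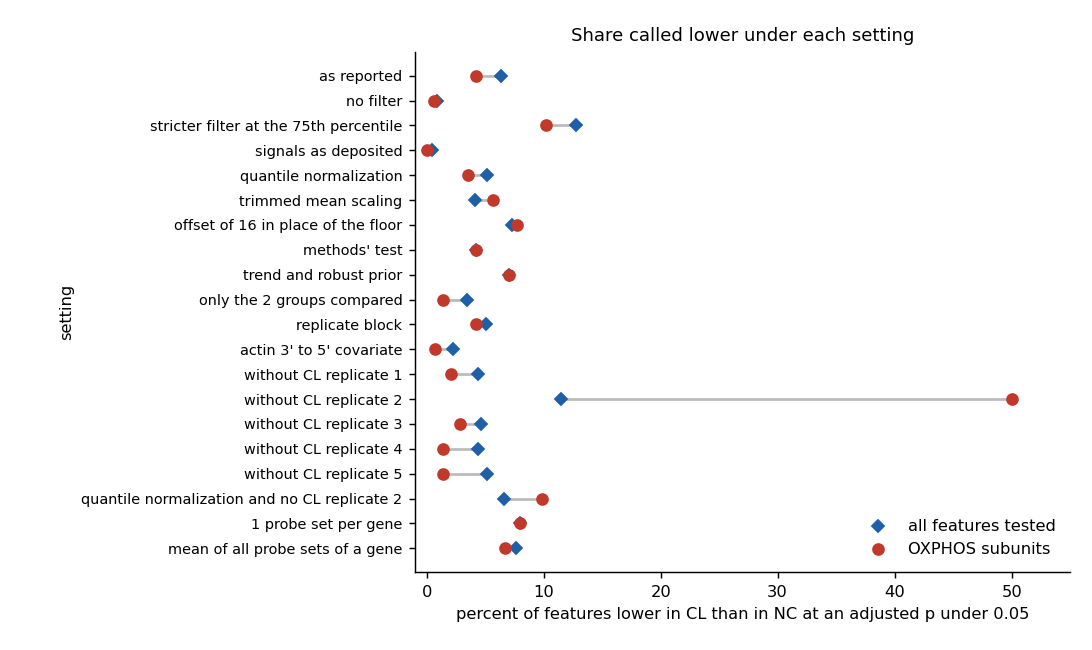
Percent of features lower in CL than in NC at an adjusted p under 0.05 (horizontal axis), for the subunits (circles) and for all features tested (diamonds), under each setting named on the vertical axis. The circles lie near or below the diamonds except without CL mouse 2, where 71 of the 142 subunit probe sets and 11.4% of all features were lower, and, by less, with trimmed mean scaling and with quantile normalization and no CL mouse 2.

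The promoters of the called genes are shown as a reference for the members that moved. RefSeq windows of 300 bases (GRCm38.p6, 250 before the start site and 50 after it) were listed for 66 of the 81 genes, 71 windows in all. Each was searched on both strands for the letters of motifs linked to mitochondrial genes: GCATGCGC (NRF1), CCGGAAG (GABPA and other ETS factors), AAGGTCA (ERR receptors), AAGATGGCG (YY1) and GGGCGG (SP1). In the sequences below, read 5′ to 3′ along the strand of the gene, capitals mark the letters of these motifs. Ndufs7 holds the YY1 letters after its start site, Uqcrc1 holds the NRF1 letters on both strands in overlap, and Sdha holds none of the searched letters. Ndufs1 and Atp5a1 are not shown.
Ndufs7 (chr10:80249199-80249498, + strand): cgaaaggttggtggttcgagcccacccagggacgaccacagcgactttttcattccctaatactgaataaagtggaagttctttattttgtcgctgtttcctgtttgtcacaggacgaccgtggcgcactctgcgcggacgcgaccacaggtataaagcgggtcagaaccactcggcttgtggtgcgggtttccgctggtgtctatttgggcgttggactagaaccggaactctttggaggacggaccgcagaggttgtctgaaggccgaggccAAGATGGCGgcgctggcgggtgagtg
Sdha (chr13:74350191-74350490, - strand): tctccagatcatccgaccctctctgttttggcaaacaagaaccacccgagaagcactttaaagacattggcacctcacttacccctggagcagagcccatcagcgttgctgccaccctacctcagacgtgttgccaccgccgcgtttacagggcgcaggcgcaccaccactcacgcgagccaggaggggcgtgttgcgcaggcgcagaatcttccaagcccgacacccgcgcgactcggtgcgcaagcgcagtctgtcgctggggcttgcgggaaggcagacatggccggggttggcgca
Uqcrc1 (chr9:108936398-108936697, + strand): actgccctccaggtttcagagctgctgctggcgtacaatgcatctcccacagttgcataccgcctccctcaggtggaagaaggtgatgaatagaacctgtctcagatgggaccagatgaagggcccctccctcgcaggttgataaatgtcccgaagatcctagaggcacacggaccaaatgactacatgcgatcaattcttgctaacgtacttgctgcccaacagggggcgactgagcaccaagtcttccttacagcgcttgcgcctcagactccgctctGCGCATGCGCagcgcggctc

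Among the 71 member windows, 9 (12.7%) held the NRF1 letters, 17 (23.9%) the ETS letters, 8 (11.3%) the ERR letters, 6 (8.45%) the YY1 letters and 29 (40.8%) the SP1 letters. Over all 32851 windows of the same length the shares were 2.71%, 8.86%, 4.72%, 1.4% and 35.7%. The NRF1 letters were found in 2 of 33 windows of complex I, 1 of 3 of complex II, 2 of 5 of complex III, 1 of 12 of complex IV and 3 of 18 of complex V. The YY1 letters were found in 4 windows of complex I and 2 of complex V. In complex II, Sdhb held the NRF1, ETS and SP1 letters and Sdhd the ETS, ERR and SP1 letters. A match of letters describes the window and does not show that a factor binds there.

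The comparison of CL+CX with CL asks what β-cryptoxanthin did to the subunits on the CL diet. No subunit passed. Of the 142 probe sets, 0 were lower and 0 higher at an adjusted p under 0.05 (limma), where 1.55% and 1.58% of all probe sets tested were, and the methods' test gave 0 lower and 1 higher, where 2.53% and 2.26% of all probe sets tested were. At an unadjusted p under 0.05 there were 5 of the 142, a smaller share than the 19.7% of all probe sets tested. The median difference was 0.085, against 0.038 over all probe sets tested, with 22 of the 142 below 0. By complex the medians were 0.078 for complex I, 0.17 for complex II, 0.079 for complex III, 0.062 for complex IV and 0.14 for complex V. This direction was not stable: without CL mouse 1 or CL mouse 4 the median over all members was -0.0092 or -0.011, and without CL mouse 2 it was 0.25 with still 0 called. With the β-actin control as a covariate the median was -0.10. The control was 0.699 to 0.945 (log2) in CL and 0.949 to 1.17 in CL+CX, without overlap. With it as a covariate, 1 of all 20342 probe sets tested passed in this comparison, against 637 without it. The control and the treatment are confounded here, so this fit cannot tell them apart.

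The members nearest to the threshold in this comparison were dim. A probe set of Atp5c1, 1438809_at, had 4.12, 4.10, 4.40, 4.07 and 4.33 in NC mice 1 to 5, 4.55, 4.20, 4.18, 4.26 and 3.96 in CL mice and 5.02, 4.73, 5.05, 5.02 and 4.17 in CL+CX mice. CL+CX mouse 5 lay inside the CL range and the other CL+CX mice lay above it, and the difference was 0.57 (SE 0.166, adjusted p = 0.0753). The bright probe set of the same gene, 1416058_s_at, at a mean log2 signal of 11.6, had a difference of 0.017 (95% interval -0.36 to 0.39), so the probe sets of Atp5c1 disagreed. A probe set of Cox7c, a small subunit of complex IV, had 5.31, 4.91, 4.67, 5.28 and 4.57 in NC mice 1 to 5, 4.52, 4.73, 4.30, 4.37 and 4.59 in CL mice and 4.86, 4.86, 4.97, 5.39 and 4.94 in CL+CX mice. All 5 CL+CX mice lay above all 5 CL mice, and the difference of 0.50 (SE 0.163, adjusted p = 0.101) did not pass. For the genes called between CL and NC, the difference between CL+CX and CL and its 95% interval were 0.12 (-0.10 to 0.34) for Sdha 1426688_at, 0.25 (0.038 to 0.47) for Sdha 1426689_s_at, 0.13 (-0.12 to 0.39) for Ndufs1, 0.20 (-0.12 to 0.51) for Ndufs7, 0.11 (-0.17 to 0.38) for Uqcrc1 and -0.11 (-0.38 to 0.17) for Atp5a1. Their adjusted p lay between 0.177 and 0.701.

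CL+CX livers were also set against NC livers, in a comparison that uses the same NC and CL+CX mice as the others. Sdha and Atp5a1 were lower and a dim probe set of Atp5c1 was higher. Of the 142 probe sets, 2 were lower and 1 was higher at an adjusted p under 0.05, where 4.98% and 4.81% of all probe sets tested were. Sdha 1426688_at differed by -0.42 (SE 0.105, adjusted p = 0.0219) and Atp5a1 1423111_at by -0.52 (SE 0.129, adjusted p = 0.0211), and neither group overlapped the other for these probe sets. Atp5c1 1438809_at differed by 0.59 (SE 0.166, adjusted p = 0.0358), with CL+CX mouse 5 inside the NC range. Atp5b had -0.47 and Sdhd -0.45 (adjusted p = 0.0625 and 0.106), which did not pass, although their groups did not overlap either. The median over all members was -0.18, against -0.031 over all probe sets tested, and it was 0.069 in the signals as deposited, where 90.3% of all calls were higher, and -0.029 under quantile normalization.

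In this comparison the separation of the groups and the test gave different counts. The CL+CX mice all lay below the NC mice for 29 of the 142 members, where 8.54% of all probe sets tested were separated in that direction, and 15 of the 29 belonged to complex I, 3 to complex II, 6 to complex III, 1 to complex IV and 4 to complex V. The CL mice, whose spread entered the error of the fit, took no part in that count. In a fit of the NC and CL+CX mice alone, 20 members were lower, where 8.97% of all probe sets tested were. Without CL mouse 2 the fit of all groups gave 10 (7.04% of the members), where 8.01% of all probe sets tested were lower. Without NC mouse 1, NC mouse 2 or CL+CX mouse 5 that fit gave 0, without NC mouse 3 it gave 1, and without CL mouse 4 it gave 4. Over all probe sets tested, 2.81% to 5.08% were lower in these fits.

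Other mitochondrial genes were described from lists of 1 probe set per gene. Over all genes taken this way, 6.76% were lower and 7.2% higher in CL than in NC, and 1.78% were lower and 1.48% higher in CL+CX than in CL. In a list of regulators of mitochondrial genes, 6 of 20 genes tested were lower in CL than in NC and 0 were higher, with a median of -0.28. The coactivators Ppargc1a and Ppargc1b, which drive transcription of respiratory genes, fell by 1.33 and 1.01 (adjusted p = 7.6e-04 and 6.2e-04). Ppargc1b rose by 1.19 in CL+CX over CL (adjusted p = 0.0026), while Ppargc1a had a difference of 0.32 (adjusted p = 0.421). Esrra, a nuclear receptor that works with them, fell by 0.48 in CL (adjusted p = 0.0322), and so did Twnk, Polg and Polrmt, which copy and transcribe the mitochondrial genome. Nrf1, Gabpa and Tfam, further activators, had differences of -0.36, -0.28 and -0.073 and did not pass.

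Of 19 subunits and electron carriers outside the naming rule, 2 were lower and 1 higher in CL than in NC, with a median of -0.29. Etfdh, which feeds electrons from fatty acid oxidation to ubiquinone, fell by 0.35 and Coq5, an enzyme of ubiquinone synthesis, by 0.37. Slc25a4, an ATP and ADP carrier of muscle, rose by 1.06 in CL (adjusted p = 0.0010) and fell by 0.88 in CL+CX relative to CL (adjusted p = 0.0193). Cyc1 and Cycs, the cytochromes c1 and c, had differences of -0.35 and -0.12 and did not pass. In the citric acid cycle, 2 of 15 genes were lower and 0 higher, with a median of -0.30: Fh1, the fumarase, fell by 0.83 and Dlst, a subunit of the oxoglutarate dehydrogenase, by 0.45. The counts for the other lists were near or below the share over all genes. Of 43 assembly factors, 1 was lower (Coa5) and 1 higher (Cox19), with a median of -0.059. Of 76 mitochondrial ribosomal proteins, 3 were lower and 1 higher, with a median of -0.090. Of 16 genes of the outer membrane and import machinery, the chaperonin Hspd1 was lower and 0 were higher, with a median of -0.23. The median correlation of these lists with the common profile of the subunits over the 15 mice was 0.836 for the carriers, 0.703 for the assembly factors, 0.297 for the regulators, 0.73 for the citric acid cycle, 0.827 for the mitochondrial ribosome and 0.676 for outer membrane and import.

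Markers of other liver cells moved with the diet. All 10 macrophage markers were higher in CL than in NC, with a median difference of 1.85, and 7 of the 10 were lower in CL+CX than in CL. Their summed signal was 1117 to 2597 in NC, 6665 to 8248 in CL and 2204 to 5053 in CL+CX. The 6 hepatocyte markers tested had a median of -0.31 between CL and NC, with all 6 below 0 and 0 passing at an adjusted p under 0.05, and a median correlation of 0.847 with the profile of the subunits. Their summed signal was 56929 to 69887 in NC, 40680 to 66046 in CL and 43823 to 53227 in CL+CX. The 6 stellate cell markers tested had a median of 0.64 and the 6 endothelial markers 0.15 in that comparison, and none of them passed. Of 6 T cell markers on the array only Cd3g was tested, at a dim mean log2 signal of 3.51. It was higher in CL than in NC (adjusted p = 0.0453). The only bile duct marker tested, Sox9, did not pass between CL and NC. Between CL+CX and CL, Sox9 fell by 1.13 (adjusted p = 0.0141) and the sinusoidal endothelial marker Clec4g by 0.83 (adjusted p = 0.0349), with all 6 endothelial markers below 0 at a median of -0.62. Lyve1, also of sinusoidal endothelium, fell by 1.405 in CL+CX relative to NC (adjusted p = 0.0106). The part of these cells in the differences of the subunits was not tested.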

How the data were processed

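Liver RNA of 15 mice was hybridized by the authors to Affymetrix mouse whole-genome arrays, 1 per mouse. The deposited signal of a probe set is a linear intensity (MAS5, according to the methods of the study). The 75th percentiles of the arrays differed, so the scaling of those methods is not contained in the values, and all 45101 probe sets are listed, so none had been filtered out. Here every array was brought to the 75th percentile of 54.1, signals under 1 were set to 1 (11.3% of all values), and log2 was taken. Signals near the array medians (9.48 to 16.7 as deposited) have little precision, and the number of mice limits the rest. The 64 control probe sets were not tested. Of all probe sets, 34958 carry 1 symbol, 932 several and 9211 none. The 3 groups entered 1 limma fit (limma 3.58.1, R 4.3.3), and p-values were adjusted by Benjamini-Hochberg across all 20342 tested probe sets, with 0.05 as the threshold. The model was tested on simulated data, drawn independently for each probe set with the same spread in all groups. The members vary together and spread more in CL, a case that this simulation does not cover.

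Where 1 probe set stands for a gene, it is the brightest on average. Members and lists were chosen with earlier results of these data known. The rule for named genes took every member past a test, the core subunits, the isoforms of other tissues and, from the other lists, the genes with the largest changes past the test and a fixed set of regulators and cytochromes. Other members were named after their values were seen. Cell types were checked with marker lists for hepatocytes, macrophages, T cells, endothelium, stellate cells, bile ducts, skeletal muscle and fat. Gene IDs of all 81 genes matched RefSeq (GRCm38.p6), from which the promoters came. Alternatives were the filter (none, or the 75th percentile), the scaling (none, quantile, trimmed mean), an offset of 16, the methods' test (Welch's ANOVA, then Tukey's test), a trend with a robust prior, only the 2 groups compared, the replicate block, the actin covariate, each mouse left out, 1 probe set or a mean per gene, and members whose probe set names end in _s_at, _x_at or _a_at left out. Quantile normalization with CL mouse 2 left out was added after seeing the data. Plots were made in Python 3.11.15 (matplotlib 3.10.9).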

Additional observations from a re-analysis of the deposited data

Results flagged for a closer look

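In 3 cases a single mouse stood apart within a group of 5 by the gap to its nearest neighbour, as a share of the range of the group (critical value 0.71), among 84 groups examined. Chance alone gives about 1 in 20 such groups. For Ndufs1 (1425143_a_at), NC mouse 3 was the highest, at a log2 signal of 9.55 against 9.18 to 9.28 in the other NC mice (ratio 0.728). For Ndufs8 (1423907_a_at), CL+CX mouse 5 was the lowest, at 10.01 against 10.28 to 10.37 (ratio 0.752). For Uqcrc1 (1428782_a_at), CL+CX mouse 5 was again the lowest, at 10.53 against 10.64 to 10.67 (ratio 0.821). Without NC mouse 3, Ndufs1 had a difference of -0.38 between CL and NC and an adjusted p of 0.0654, and without CL+CX mouse 5 none of the 6 calls between CL and NC but that of Atp5a1 (adjusted p = 0.0607) was lost.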

How the results depend on the processing

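Each result was recomputed under the alternatives listed with the processing. Medians over all members and over each complex between CL and NC stayed below 0 except in the signals as deposited, where they were 0.066 over all members and 0.069, 0.055, 0.090 and 0.042 for complexes I, II, IV and V. In those signals 2 members were higher in CL, where 2235 of all 20342 probe sets tested were. For members lower in CL than in NC, the share of all probe sets tested that were lower is given in parentheses. The number was 1 with no filter (0.906%), 13 with the stricter filter (12.8%, against 10.2% of the members) and 0 in the signals as deposited (0.433%). It was 11 with an offset (7.28%), 10 with a trend and robust prior (7.02%), 2 with only the compared groups (3.48%) and 1 with the actin covariate (2.24%). It was 2 without members whose probe set names end in _s_at, _x_at or _a_at (6.35%) and 14 with quantile normalization and no CL mouse 2 (6.63%). With 1 mouse left out at a time it was 2 to 71, where 3.75% to 11.4% of all probe sets tested were lower, and members higher were 0 to 1. The medians then ranged from -0.42 to -0.15 over all members and from -0.40 to -0.14, -0.40 to -0.19, -0.50 to -0.20, -0.38 to -0.11 and -0.43 to -0.15 for complexes I to V. Among named members, the difference took the opposite sign in the signals as deposited for Cox5a (0.23), Ndufs8 (0.23), Sdhc (0.19), Atp5c1 (0.12), Cox5b (0.026), Cox4i1 (0.018), Uqcrc2 (0.016) and Sdhb (0.011). It did so under quantile normalization for Cox5a (0.15), Ndufs8 (0.055) and Atp5c1 (0.026), for Cox5a also without CL mouse 2 in addition (0.084). With 1 mouse left out, Cox5a ranged from -0.25 to 0.019 (without CL mouse 4) and Ndufs8 from -0.27 to 0.076 (without CL mouse 4), with 0.000939 without CL mouse 5. The cause was not tested.

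Between CL+CX and CL, no alternative called a member lower. The methods' test called 1 higher, and leaving out 1 mouse at a time gave 0 to 1. With the actin covariate the medians were -0.10 over all members and -0.12, -0.16, -0.11 and -0.067 for complexes I, III, IV and V, and in the signals as deposited that of complex IV was -0.00794. With 1 mouse left out they ranged from -0.011 to 0.25 over all members and from -0.019 to 0.25, 0.12 to 0.23, -0.047 to 0.26, -0.033 to 0.24 and 0.039 to 0.29 for complexes I to V.

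Between CL+CX and NC, the share of all probe sets tested that were lower is again in parentheses. The number of members lower was 0 with no filter (0.619%), in the signals as deposited (0.924%), with the actin covariate (1.38%) and with a mean per gene (5.97% of genes). It was 4 with trimmed mean scaling (4.59%), an offset (6.05%) or a trend and robust prior (5.75%), and 5 with the stricter filter (10.9%). It was 6 with the methods' test (4.91%) or with quantile normalization and no CL mouse 2 (7.04%), and 20 with only the compared groups (8.97%). The number higher was 2 in the signals as deposited and under quantile normalization, where 1758 and 1092 of all 20342 probe sets tested were higher. It was 3 with quantile normalization and no CL mouse 2, where 1505 of 20685 were. It was 0 with no filter, the stricter filter, the methods' test, a trend and robust prior, the actin covariate, 1 probe set per gene or a mean per gene. Leaving out 1 mouse gave 0 to 10 lower, where 2.81% to 8.01% of all probe sets tested were lower, and 0 to 1 higher. In the signals as deposited the medians were 0.069 over all members and 0.049, 0.13, 0.021, 0.081 and 0.098 for complexes I to V. Under quantile normalization they were -0.029 over all members and -0.050, 0.00571, -0.11, -0.037 and 0.00811, and without CL mouse 2 in addition -0.029, -0.050, 0.00595, -0.11, -0.037 and 0.00847. The median of complex II was -0.30 with 1 probe set per gene and without members whose probe set names end in _s_at, _x_at or _a_at. The median of complex III was -0.36 with the actin covariate. With 1 mouse left out the medians ranged from -0.20 to -0.15 over all members and from -0.21 to -0.17, -0.14 to -0.076, -0.26 to -0.19, -0.19 to -0.12 and -0.18 to -0.10 for complexes I to V.

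Scaling also moved the share of higher calls over all probe sets, from 48.2% to 61.3% between CL and NC with trimmed mean scaling, and between CL+CX and CL from 50.5% to 40.4% with it and to 28.4% in the signals as deposited. The replicate numbers were not treated as pairs. Correlations of deviations between same-numbered mice of CL and NC were -0.0142 to 0.135, against means of -0.0298 to 0.00463 for other numbers. Same-numbered mice had -0.132 to 0.0452 between CL+CX and CL and -0.0906 to 0.0597 between CL+CX and NC. With 5 mice per group, these small values cannot show that the mice were unpaired. A replicate block gave 6 members lower in CL than in NC and changed no call among the named members. Dim probe sets and 5 mice per group limit what could be detected.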
